A study of Mus musculus with 8 samples.

Results

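Distal sites of trimethylated lysine 27 of histone H3 (H3K27me3) that were found only after morphine were chosen by their peak calls, 968 of the 6899 binding sites (BSs) found after morphine. A BS of a condition was a merged region with a peak in both ChIP-Seq libraries of that condition, joined by an overlap of at least 1 bp. A member was a morphine BS that overlapped none of the 8077 control BSs and lay more than 1 kb from the 5' end of every named locus of the RNA count table. Of 1486 morphine BSs without a control counterpart, 968 met the distance limit and 518 were at a promoter, that is, within 1 kb of such an end. Because the peak calls of the 4 libraries selected the members, their presence in morphine and their absence from the control BSs are given as a description, with no test.

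Mouse embryonic stem cells (mESCs) that carry an Oct4-GFP reporter, grown without feeder cells, received 10 µM morphine for 24 h, and the control cells received saline. H3K27me3 was profiled by ChIP-Seq in 2 libraries per condition, and RNA-Seq was run in 2 further libraries per condition, 8 libraries in all. The labels name no other strain, age or allele, and the methods call the paired ChIP-Seq libraries biological replicates without saying which cultures each library came from. The p-values measure only the spread between these libraries, which may in part be technical. The 10 embryonic stem cell markers, among them the core pluripotency factors Pou5f1, Nanog and Sox2, summed to 5078 to 5381 CPM (counts scaled to library size) per RNA library, and each was above 157 CPM everywhere. Markers of primitive endoderm summed to 208 to 215 CPM, those of neuroectoderm to 60.3 to 64.3, trophoblast to 22.9 to 25.9, fibroblast to 18.2 to 21.4, cells that resemble the 2-cell embryo to 9.57 to 10.96 and mesoderm to 2.60 to 3.31 CPM. The RNA came from whole dishes, so fewer cells of a kind and less RNA per cell cannot be told apart.

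H3K27me3 is written by Polycomb repressive complex 2, whose catalytic subunits are Ezh1 and Ezh2, and is removed by the demethylases Kdm6a and Kdm6b. In embryonic stem cells the mark is known for its broad domains over CpG-rich promoters of silent developmental genes. Outside promoters it also covers gene deserts, introns and internal CpG islands, usually at lower enrichment.

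The central 300 bases of 6 members are printed because they show what the class holds at its extremes. The first 4 are the highest ranked members without any control peak, and the other 2 have the highest and the lowest GC content. Bases were read from the RefSeq sequence of GRCm38, the build that UCSC calls mm10, on the plus strand, and capitals mark CG pairs, the dinucleotide on which CpG islands are defined.
Pax2 region, chr19:44681479-44681778: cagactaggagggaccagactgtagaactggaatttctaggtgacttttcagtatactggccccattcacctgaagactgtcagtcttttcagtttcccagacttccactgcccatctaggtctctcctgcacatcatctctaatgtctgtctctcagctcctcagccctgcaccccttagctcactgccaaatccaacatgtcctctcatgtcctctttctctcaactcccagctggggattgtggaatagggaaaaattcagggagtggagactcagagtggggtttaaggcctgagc
Zfp825 region, chr13:74529282-74529581: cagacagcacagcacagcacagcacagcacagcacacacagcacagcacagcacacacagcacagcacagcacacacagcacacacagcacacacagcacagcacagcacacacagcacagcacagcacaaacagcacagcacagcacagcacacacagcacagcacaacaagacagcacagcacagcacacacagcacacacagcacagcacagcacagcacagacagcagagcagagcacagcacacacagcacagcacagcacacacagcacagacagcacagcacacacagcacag
Y chromosome, first member, chrY:142898-143197: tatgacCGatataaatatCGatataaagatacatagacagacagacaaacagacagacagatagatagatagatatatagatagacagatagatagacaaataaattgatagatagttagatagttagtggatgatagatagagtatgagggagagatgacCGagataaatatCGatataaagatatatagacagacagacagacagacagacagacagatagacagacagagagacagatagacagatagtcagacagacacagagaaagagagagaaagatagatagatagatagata
Zbtb38 region, chr9:96788168-96788467: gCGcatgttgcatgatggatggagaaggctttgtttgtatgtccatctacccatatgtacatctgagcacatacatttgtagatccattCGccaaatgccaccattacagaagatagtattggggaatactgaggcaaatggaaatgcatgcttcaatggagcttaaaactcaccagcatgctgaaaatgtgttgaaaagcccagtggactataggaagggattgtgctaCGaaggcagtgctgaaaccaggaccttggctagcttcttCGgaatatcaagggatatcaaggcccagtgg
Cdkn1a, chr17:29094467-29094766: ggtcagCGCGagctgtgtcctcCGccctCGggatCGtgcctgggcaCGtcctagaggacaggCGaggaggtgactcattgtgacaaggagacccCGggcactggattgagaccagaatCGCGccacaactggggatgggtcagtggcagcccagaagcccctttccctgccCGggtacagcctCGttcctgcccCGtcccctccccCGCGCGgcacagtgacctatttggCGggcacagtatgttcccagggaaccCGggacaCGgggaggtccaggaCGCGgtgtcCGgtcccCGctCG
Y chromosome, second member, chrY:261120-261419: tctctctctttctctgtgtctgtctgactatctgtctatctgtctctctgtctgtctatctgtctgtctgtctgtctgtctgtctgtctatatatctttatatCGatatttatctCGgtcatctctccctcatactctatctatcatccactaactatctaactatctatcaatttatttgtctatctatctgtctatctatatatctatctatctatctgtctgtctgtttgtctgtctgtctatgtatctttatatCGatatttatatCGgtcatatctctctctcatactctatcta
The Cdkn1a window held 24 CG pairs and a GC content of 67.0%. The windows of the Pax2 and Zfp825 regions held none, and the Zbtb38 window and both Y windows held 4 each. The Zfp825 window is a run of CAGCA-like units that is repeat-masked over all of its bases. The windows of both Y members are made of short GATA-like and GACA-like units. The second Y member was nearly the reverse complement of the first. Of the 20-base words of the first Y member, 96.0% occurred on the opposite strand of the second and 0% on the same strand, and 116523 bp separated them, so the pair is close to 1 sequence counted at 2 places.

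The members carried low peak scores. The deposited score is -10 times the log10 of the peak caller's p-value and is never below 50. The median score of the members was 65.6 in morphine replicate 1 and 75.2 in morphine replicate 2. At the 2882 distal BSs shared by both conditions the medians were 92.0 and 116. As a percentile of all peaks in the same library, the median member stood at 28.8 in replicate 1 and 41.2 in replicate 2, against 57.1 and 71.2 for the shared distal BSs. Only 43 members (4.44%) reached a score of 100 in both morphine libraries, against 38.3% of the shared distal BSs and 16.8% of the 518 promoter BSs found only after morphine. Of the 2092 distal BSs found only in the control, 6.12% reached it in both control libraries. At least 1 of the 2 scores was under 55 in 270 members (27.9%) and under 60 in 467 (48.2%), close to the calling limit.

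Most members had a peak in 1 of the control libraries. No peak of either control library overlapped 273 members (28.2%). A peak of control replicate 1 alone overlapped 195 members (20.1%), and a peak of control replicate 2 alone overlapped 499 (51.5%). In 1 member both control libraries had a peak, but those peaks did not overlap each other. Where a control peak was present its score had a median of 70.1 in control replicate 1, with a range of 50.1 to 167, and of 77.0 in control replicate 2, with a range of 50.04 to 263. The mirror class was built in the same way. Of the 2092 distal BSs found only in the control, 722 (34.5%) had no morphine peak, 226 had a peak in morphine replicate 1 and 1144 in morphine replicate 2. In both classes the replicate with the longer peak list supplied most of the unmatched peaks.

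**Figure D1:**
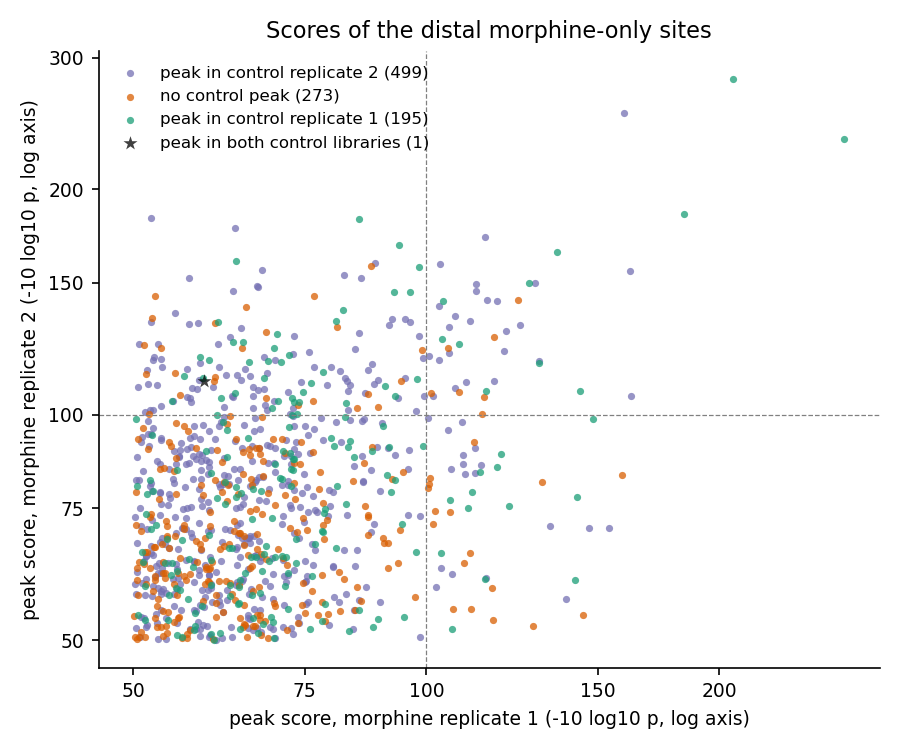
Peak score of each of the 968 distal morphine-only sites in morphine replicate 1 (x axis) and replicate 2 (y axis), both on log axes, with 1 point per site coloured by the control libraries that had a peak there. Most points lie below the dashed lines at a score of 100, the 273 sites without a control peak lie among the others, and the 4 highest sites in the upper right had a peak in a control library.

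The number of peaks differed more between replicates of a condition than between the means of the conditions. Control replicate 1 had 10305 peaks and control replicate 2 had 13778, while morphine replicate 1 had 8681 and morphine replicate 2 had 12282. Of the 8509 peaks of morphine replicate 2 that were more than 1 kb from a named 5' end, 45.7% had a counterpart in morphine replicate 1, 54.1% in control replicate 1 and 68.0% in control replicate 2. Of the 5114 such peaks of morphine replicate 1, 76.2% were matched in morphine replicate 2, 76.0% in control replicate 2 and 68.3% in control replicate 1. For morphine replicate 2 these shares rose with the number of peaks in the list searched, so they do not rank the libraries by likeness. The methods give a minimum of reads per replicate but not the depth of each library, so the part of depth in the absence of a control peak was not tested.

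The number of sites changed when a library was left out, least without control replicate 2. Without control replicate 1, so that any peak of control replicate 2 counted as a control site, 468 of the members were left. Without control replicate 2 the number was 772. Both numbers follow from the control peaks at the members counted above. With morphine replicate 2 or morphine replicate 1 alone as the morphine list, 4446 and 1970 distal sites overlapped no control BS. These lists do not require a peak in both morphine replicates, so more sites enter them. At a minimum score of 100 in every library the rule gave 238 sites, of which 43 members were part.

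The 10 highest ranked members without a control peak were spread over 9 chromosomes. Rank was the lower of the 2 percentiles of a site. The first was chr19:44678799-44684458, with scores of 124 and 142. Its nearest named 5' end was that of KY467826 at 10817 bp, and the nearest protein-coding start was that of Pax2, a transcription factor of kidney, eye and midbrain development, at 71587 bp. Pax2 had at most 2 counts in any RNA library. The second, chr13:74528110-74530753, scored 117 and 127 and lay 34160 bp from the 5' end of Zfp825, a zinc finger gene. This region was repeat-masked over 97.8% of its bases, and its CpG ratio, the number of CG pairs over the number its base composition predicts, was 0.00568. The third was the first Y member, with scores of 108 and 107 and 85.5% of its bases masked. The second Y member scored 77.7 and 83.8 and also had no control peak.

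The other 7 were masked over 8.11 to 42.4% of their bases. The region chr9:96786992-96789643 scored 115 and 106 near Zbtb38, which encodes a methyl-CpG binding zinc finger protein. The region chr3:34704701-34706665 scored 105 and 123, overlapped the non-coding locus Gm3143, and lay 54296 bp from the start of Sox2, a core pluripotency gene. The members near Foxj2, a forkhead factor, and near Opa1, a mitochondrial fusion protein, scored 101 and 107, and 114 and 100. The last 3 lay near Dsn1, a kinetochore protein, with scores of 99.1 and 122, near Mep1b, a metalloprotease subunit, with 94.1 and 111, and near Rce1, a CAAX protease, with 112 and 92.0. The Dsn1 member was inside Soga1, 31880 bp from the Dsn1 5' end. The Rce1 member was inside Gm960, 6225 bp from the Rce1 5' end. Control peaks lay 5150 bp from the Pax2 region member and 7979 bp from the Rce1 member, and 89574 bp away at the Zfp825 member.

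No transcript named beside these 10 members passed the test across all loci. Sox2 stood at 257 and 227 CPM in the control libraries and at 235 and 232 CPM after morphine. Those values overlap, and the log2 fold change was -0.05 ± 0.06 (SE; edgeR quasi-likelihood test, Benjamini-Hochberg FDR = 0.665). Opa1 stood at 127 and 122 CPM in the control and 111 and 117 CPM after morphine. Its log2 fold change was -0.12 ± 0.05 (SE; edgeR, FDR = 0.220). Zfp825 stood at 9.68 and 8.76 CPM in the control and 6.44 and 7.32 CPM after morphine. Its log2 fold change was -0.42 ± 0.12 (SE; edgeR, FDR = 0.0820). Foxj2, Dsn1, Rce1, Mep1b, Zbtb38, Gm3143 and Soga1 had FDRs of 0.337 to 0.944 by the same edgeR test. The remaining nearest loci had 3 counts or fewer in every library, and the Gm960 locus that holds a member had 2.

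The highest scores of all belonged to members that had a control peak. The region chr17:29093614-29095620 scored 269 in morphine replicate 1 and 233 in morphine replicate 2, and a peak of control replicate 1 with a score of 116 covered it. It lies inside Cdkn1a, which encodes a cell cycle inhibitor, 2635 bp downstream of the 5' end in the count table. A GENCODE vM21 start of Cdkn1a lies within the region itself. It had the highest GC content of all members, 63.1%, and a CpG ratio of 0.788. Cdkn1a RNA stood at 92.6 and 90.8 CPM in the control and 103 and 97.4 CPM after morphine. Its log2 fold change was 0.13 ± 0.05 (SE; edgeR, FDR = 0.202). The next strongest, chr2:99552368-99557330, scored 207 and 281 with a control replicate 1 score of 131. Next came chr16:65294301-65301259, which scored 184 and 186 with a control replicate 1 score of 112, and lay 188517 bp from the 5' end of Htr1f, a serotonin receptor with at most 1 count in any library.

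The median GC content and CpG ratio of the members lay between those of the control-only and the shared distal BSs. Of the 968 members 967 had sequence, and 1 was on an unplaced scaffold. Their median GC content was 43.5%, against 42.0% in the distal control-only BSs, 44.8% in the distal shared BSs and 50.5% in the promoter BSs found only after morphine. The median CpG ratio was 0.202, 0.181, 0.246 and 0.411 in the same order. Distal peaks of single libraries had median GC contents of 43.6 and 41.7% in control replicates 1 and 2. In morphine replicates 1 and 2 they had 44.6 and 42.5%. Replicates of a condition thus differed by more in GC content than the members did from either other distal class. A window of 200 bases with a GC content above 50% and a CpG ratio above 0.6, the usual limits of a CpG island, occurred in 33.8% of the members (95% Wilson interval 30.9 to 36.9%, counting error only). The shares were 27.5% in the control-only, 52.6% in the shared and 90.9% in the promoter class. Among the members the share was 50.8% where control replicate 1 had a peak, 28.5% where control replicate 2 had one and 31.3% where neither had. Regions are not replicates of a condition, so no test was made between classes.

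Simple repeats were about as frequent as in the other distal classes. A run of 10 CA units on either strand occurred in 21.4% of the members, 18.8% of the control-only and 24.8% of the shared distal BSs. A run of 10 GA units occurred in 17.1%, 17.1% and 16.9%. Over 80% of the bases were repeat-masked in 24 members (2.48%), against 3.16% of the control-only and 2.34% of the shared distal BSs. The Zfp825 member and both Y members belong to these 24.

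**Figure D2:**
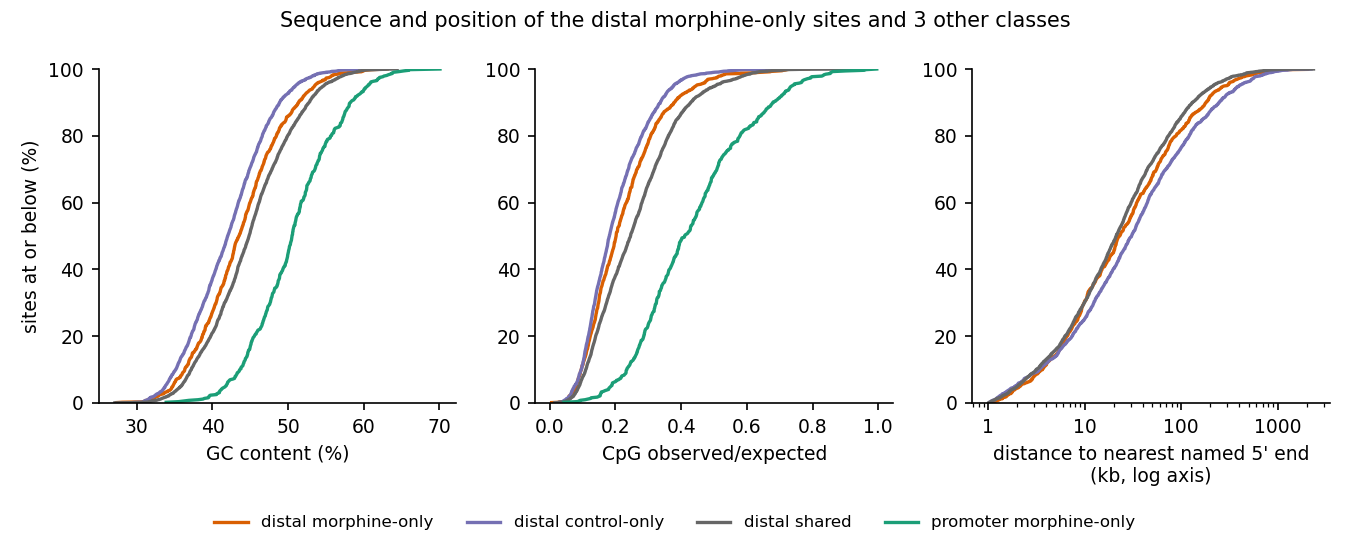
Cumulative share of sites (y axis, percent) by GC content, by CpG observed to expected ratio and by distance to the nearest named 5' end in kb on a log axis, with 1 line per class. The distal morphine-only line, with a median GC content of 43.5%, runs between the distal control-only line at 42.0% and the distal shared line at 44.8%, and the promoter class lies to the right in GC content and CpG ratio and is left out of the distance panel.

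The members lay both inside and between genes. The median distance to the nearest named 5' end was 22969 bp, with quartiles of 8490 and 68752 bp, and 178 members (18.4%) were more than 100 kb away. Of the 968 members, 371 (38.3%, Wilson interval 35.3 to 41.4%) overlapped a named locus, 182 of them at an exon and 189 in introns alone, and 597 lay outside. The shares within a named locus were 33.2% and 38.3% in the control-only and shared distal BSs. The nearest members to the limit lay 1047 to 1193 bp from a 5' end, and the 5 morphine-only BSs just inside it lay 872 to 986 bp away. The scores of the 5 members were 55.1 to 147 and those of the 5 others 51.5 to 127.

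Some members were at starts that the count table lacks. A GENCODE vM21 start lay within 1 kb of 136 members (14.05%), and 40 of these were starts of protein-coding genes. Among the 40, 30 held a CpG-rich window, as at Cdkn1a, Celf5, Arhgef3, Nlgn1, Dlc1, Kcnk2, Ank2 and Mbnl1. A further 32 were at long non-coding starts alone and 64 at other starts. Without these 136 regions, 832 members were left, with a median GC content of 43.0%. An unnamed locus of the count table had its 5' end within 1 kb of 21 members.

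Members rarely formed groups. Only 24 members had another member within 10 kb, and 147 (15.2%) had another within 100 kb. The median gap to the nearest control BS was 60890 bp, 128 members (13.2%) had a control BS within 10 kb, and 4 had it within 1 kb.

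Chromosomes 8 and 11 held 261 of the members (26.96%). Chromosome 8 held 133, or 10.3 per 10 Mb, and chromosome 11 held 128, or 10.5 per 10 Mb. The other autosomes had 2.04 to 4.42 per 10 Mb, and the X chromosome had 8 members, or 0.468 per 10 Mb. The distal control-only BSs had 21.6 and 19.7 per 10 Mb on chromosomes 8 and 11, and the shared distal BSs 20.9 and 30.1, so the same chromosomes stood out in every distal class. Of all peaks, 8.55 to 9.79% per library were on chromosome 8 and 10.4 to 11.4% on chromosome 11. The RNA counts showed a share of 6.14 to 6.38% for chromosome 8 and 11.8 to 11.95% for chromosome 11 per library.

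**Figure D3:**
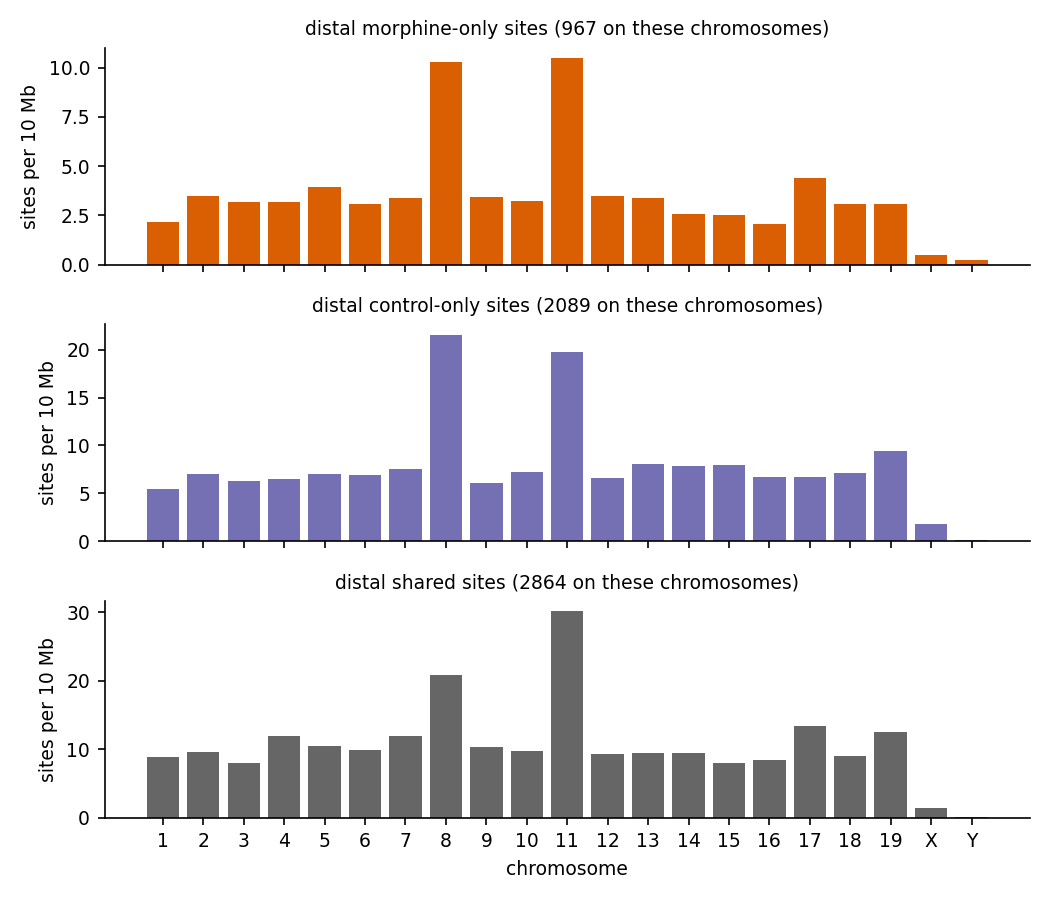
Sites per 10 Mb (y axis) on each chromosome (x axis) for the distal morphine-only, control-only and shared sites, each panel with its own scale from 0. Chromosomes 8 and 11 are the tallest bars in all 3 panels, at 10.3 and 10.5 sites per 10 Mb for the morphine-only sites, and X and Y are the lowest.

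The genes that overlapped most members were long. Galntl6, a polypeptide N-acetylgalactosaminyltransferase whose locus spans 1138 kb of chromosome 8, overlapped 5 members. Their scores ran from 55.1 to 72.1 in morphine replicate 1 and from 61.1 to 87.6 in morphine replicate 2, and all 5 had a peak in control replicate 2, with scores of 52.5 to 91.8. The protocadherin cluster on chromosome 18, a row of neuronal adhesion genes that the count table joins into 1 locus with 39 names, overlapped 4 members, 2 of them without a control peak. Pde4d, a cAMP phosphodiesterase, overlapped 3 members, 2 of them without a control peak, as did abParts, the immunoglobulin heavy chain locus. Dpp6, a potassium channel partner, and Adgrl3, a latrophilin receptor, overlapped 3 each, with 0 and 1 members free of a control peak. A further 10 genes overlapped 2 members each, among them Cntn5, Park2, Tenm2 and Eml6. Counts of the longest Galntl6 transcript were 8 and 7 without morphine and 14 and 12 with it. Its log2 fold change was 0.87 ± 0.44 (SE; edgeR, FDR = 0.290). Another Galntl6 transcript had 3 and 3 counts without morphine and 2 and 1 with it. A further one had 0 counts in every library, and neither of these was tested. Pde4d stood at 25.2 and 23.5 CPM in the control and 22.5 and 21.8 CPM after morphine, with a log2 fold change of -0.14 ± 0.07 (SE; edgeR, FDR = 0.312).

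Gene families were counted over the loci nearest to or overlapping a member. Of all 32792 gene names in the counts, 1174 (3.58%) were at a member, and no share was corrected for gene length. None of the 27 Polycomb and H3K27 demethylase genes was among them. Of the 10 pluripotency genes 1 was, Lin28a, an RNA-binding protein that blocks let-7 maturation, with a member 14596 bp away that scored 103 and 140 and had a control replicate 2 peak of 136. Of 186 genes of lineage transcription factor families 9 (4.84%) were at a member: Dlx4, Foxj2, Foxn2, Irx3, Pax3, Pou5f2, Sox5, Sox6 and Tbx20. Of 73 signalling ligands and receptors 4 (5.48%) were, namely Bmp6, Fgf20, Fzd4 and Fzd9. Neuronal channel, receptor and adhesion families had 65 of 332 names (19.6%), but 36 of these were protocadherins of the joined locus, and without that family the count was 29 of 263 (11.03%), with Gria1, Grik2, Htr2a, Nrxn3, Nlgn1 and Cacna1a among them. Clustered olfactory and vomeronasal receptors had 9 of 1436 (0.627%). Of the 4 genes of the opioid receptor family, which includes the receptor that morphine binds, only Oprl1, the nociceptin receptor, had a member, 18630 bp away with scores of 62.0 and 81.3 and no control peak.

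The next comparison asked whether transcripts at the members differed after morphine. Over all 20350 loci tested by edgeR's quasi-likelihood test, 309 (1.52%) passed an FDR of 0.05, 125 (0.614%) higher and 184 (0.904%) lower after morphine. Of the 910 loci nearest to a member 492 had counts high enough to be tested, and 11 of the 492 (2.24%) were differentially expressed genes (DEGs), 3 higher and 8 lower. Of the 548 loci that overlapped a member 307 were tested, and 4 (1.303%) passed, 2 in each direction. Among the 144 tested loci nearest to members without a control peak 5 (3.47%) passed, and among the 90 that overlapped such a member 2 (2.22%) did. These shares rest on few called loci, and nothing is read from them about the members. The median log2 fold change was -0.039 for the nearest and -0.026 for the overlapping loci, against 0.0013 for all loci. With the trend over locus length and GC content removed it was -0.012, -0.021 and 0.0029. By level per length, the nearest loci had a median of 3.24 RPKM (reads per kilobase of exon, scaled to library size) in the control and the overlapping loci 0.877, against 3.32 for all tested loci.

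The number of DEGs at members depended on single libraries. Without morphine replicate 1 of the RNA libraries, 1 nearest and 1 overlapping locus passed, and without control replicate 2 the numbers were 51 and 21, in a background that moved from 13 to 1619 of all loci.

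Ttc14, a tetratricopeptide repeat protein, had the largest log2 fold change among the DEGs at members. It stood at 47.3 and 46.3 CPM in the control libraries and at 77.7 and 88.4 CPM after morphine. Both morphine values were above both control values, and the log2 fold change was 0.83 ± 0.07 (SE; edgeR, FDR = 0.000459). It passed under 11 of 11 other settings, with adjusted p-values of 3.59e-25 to 0.00467. The 10 other DEGs described next passed under 6 (Kif1a and Sptbn4) to 8 settings of the 10 or 11 that gave them an adjusted p, of which the highest were 0.348 to 0.427, by edgeR without morphine replicate 1. None of the 10 passed without morphine replicate 1. Naa30, Kif1a, Trim71, Sptbn4 and Platr10 did not pass without control replicate 1 either, nor did the last 4 of these without morphine replicate 2. The member chr3:33802570-33805056 lies inside Ttc14, 2387 bp from its 5' end, overlaps an exon, scored 62.8 and 59.5 and had no control peak. The RNA of Ttc14 was higher in the condition in which this BS was called.

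Kif1a, a kinesin that carries synaptic vesicle precursors, stood at 8.01 and 8.56 CPM in the control and 11.7 and 11.5 CPM after morphine, without overlap. Its log2 fold change was 0.48 ± 0.10 (SE; edgeR, FDR = 0.0419), and its member, 9613 bp upstream, scored 104 and 142 with a control replicate 1 peak of 106. Sptbn4, a spectrin of the axon initial segment, contained a member that a control peak overlapped. Sptbn4 stood at 80.7 and 85.7 CPM in the control and 99.8 and 98.6 CPM after morphine. Its log2 fold change was 0.25 ± 0.05 (SE; edgeR, FDR = 0.0474).

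The other 8 loci were lower after morphine. Smarca5, the ATPase of ISWI chromatin remodelling complexes, stood at 322 and 304 CPM in the control and 252 and 270 CPM after morphine, without overlap, with a log2 fold change of -0.26 ± 0.05 (SE; edgeR, FDR = 0.0378). Its member, 52211 bp from the 5' end and inside Frem3, scored 60.6 and 81.8 and had no control peak. Psip1, a chromatin reader that tethers proteins to transcribed genes, stood at 286 and 289 CPM in the control and 236 and 256 CPM after morphine. Its log2 fold change was -0.22 ± 0.05 (SE; edgeR, FDR = 0.0498), and its member, 7533 bp from the 5' end, had a control peak. Trim71, a let-7 target that keeps stem cells dividing, stood at 161 and 127 CPM in the control and 110 and 107 CPM after morphine. The control libraries of Trim71 differed by more than the nearer control and morphine libraries did, and its log2 fold change was -0.41 ± 0.09 (SE; edgeR, FDR = 0.0462). Without control replicate 1 the log2 fold change of Trim71 was -0.23 and the call was lost. The Trim71 member had scores of 53.0 and 50.2 after morphine and a control replicate 2 peak of 103, higher than either. Platr10, a pluripotency-associated non-coding transcript, and Naa30, an N-terminal acetyltransferase, were lower too. Platr10 stood at 68.3 and 61.9 CPM in the control and 51.7 and 54.0 CPM after morphine, and Naa30 at 63.3 and 58.9 against 47.5 and 49.9 CPM, with log2 fold changes of -0.30 and -0.33 (edgeR, FDR = 0.0474 and 0.0342). The Platr10 member, about 65490 bp from the 5' end, had no control peak. The Naa30 member, about 12080 bp from the 5' end, had a control peak.

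Zinc finger genes made up a further group. Zfp97 stood at 9.76 and 9.89 CPM in the control and 6.05 and 6.71 CPM after morphine, with a log2 fold change of -0.62 ± 0.11 (SE; edgeR, FDR = 0.0263). Its member, about 29870 bp from the 5' end, had scores of 54.1 and 72.0 and no control peak. Zfp934 stood at 18.1 and 18.2 CPM in the control and 12.9 and 13.996 CPM after morphine, with a log2 fold change of -0.43 ± 0.08 (SE; edgeR, FDR = 0.0351). Its member, inside the locus about 68920 bp from the 5' end, had a control peak. Both groups of libraries were apart in each gene. Of 385 genes named Zfp 32 (8.31%) were at a member, 22 of their loci were tested, and 2 were called, both lower. The median log2 fold change was -0.20 over those 22 loci and -0.12 over all 379 tested loci of the family, of which 2 were higher and 15 lower. AK011687, the remaining DEG, stood at 31.8 and 28.2 CPM in the control and 19.5 and 23.2 CPM after morphine, a log2 fold change of -0.48 ± 0.09 (SE; edgeR, FDR = 0.0342), and its member without a control peak covers a GENCODE start of Gm21411. Zinc finger genes have near-identical copies, so reads may be split between them and these values are uncertain.

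With the length and GC trend removed, Ttc14 (1.45e-06) and Trim71 (0.0289) stayed under an FDR of 0.05 by edgeR with Benjamini-Hochberg adjustment. The 9 other DEGs described had adjusted p-values of 0.0652 to 0.381 in that fit, with the same direction. Their log2 fold changes shrank by different amounts. Kif1a moved from 0.48 to 0.42 and Platr10 from -0.30 to -0.24. Smarca5 moved from -0.26 to -0.094 and Psip1 from -0.22 to -0.079. Exonic GC content was 37.7 to 42.1% in Zfp97, Zfp934, AK011687, Naa30, Smarca5, Psip1 and Ttc14, against a median of 49.7% over all tested loci.

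**Figure D4:**
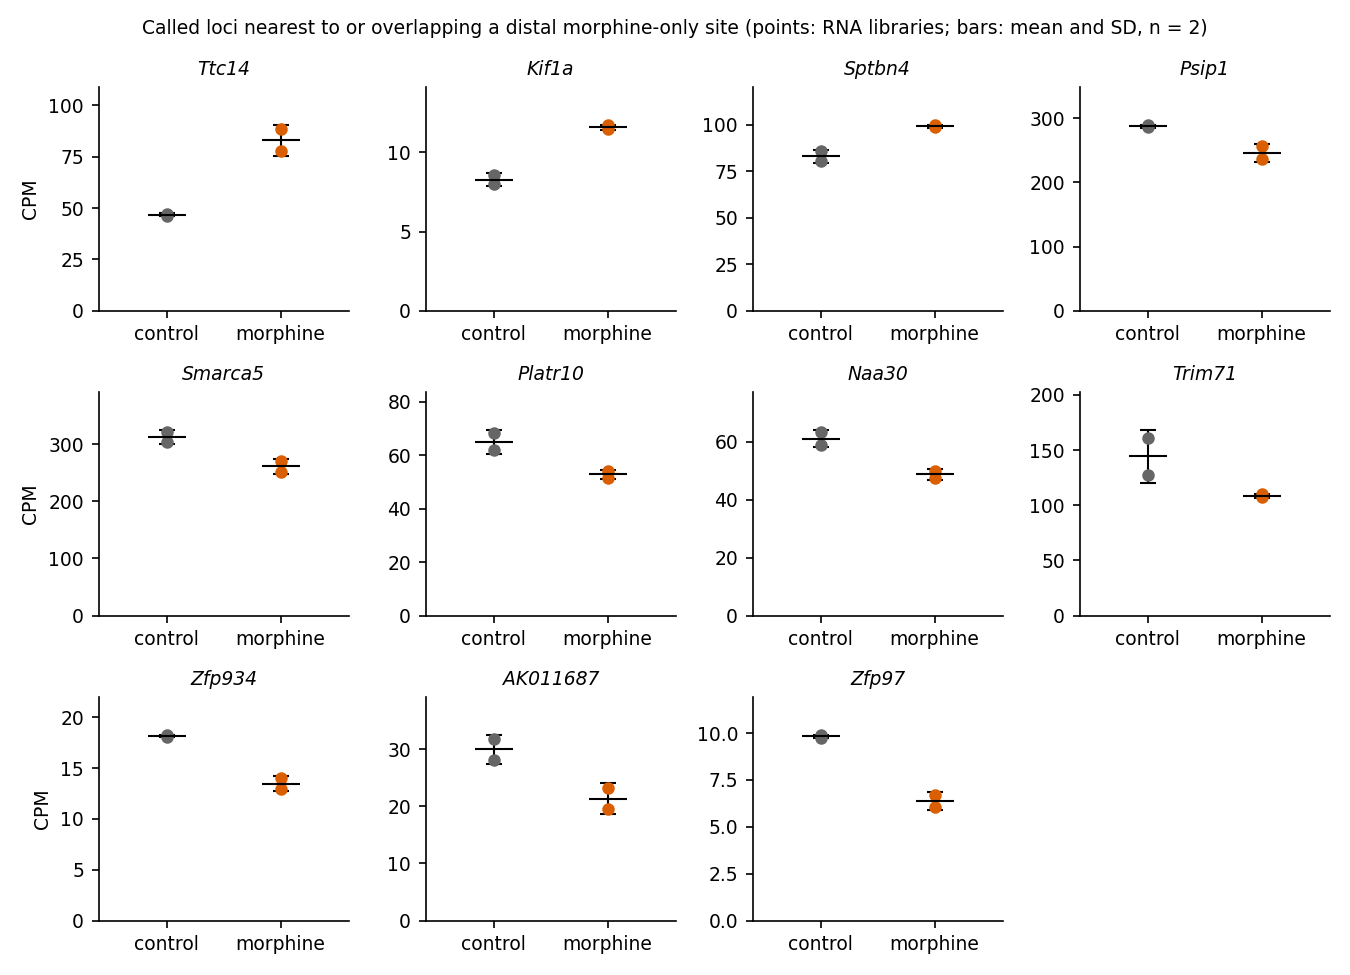
RNA level in CPM (y axis, from 0, own scale per panel) of 11 loci that passed an FDR of 0.05 and were nearest to or overlapped a distal morphine-only site, in the control and morphine libraries (x axis), with 1 point per library and the mean and SD (n = 2). The first 3 panels are higher after morphine, with Ttc14 at 77.7 and 88.4 against 47.3 and 46.3 CPM, and the 8 others are lower, with the groups apart in every panel.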

How the data were processed

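H3K27me3 ChIP-Seq and RNA-Seq libraries of control and morphine-treated mESCs were grouped by their labels. Per the methods and the submitters' processing notes, the authors trimmed reads with Trim Galore 0.6.2, aligned ChIP reads to mm10 with Bowtie2 2.3.5.1 and called peaks with MACS, 1 list per library, with 1e-05 as the limit of the p-value. A deposited peak score is the log10 of that p-value multiplied by -10, so the limit is a score of 50. The methods give a minimum number of ChIP reads per replicate, while the control library given to the peak caller and the depth of each library are not given in the sources used here, and the labels and the methods name different antibodies. For RNA, the counts that the authors deposited are not normalized and were made by HISAT2 2.1.0, StringTie 1.3.6 and featureCounts 1.6.4, and totals ran from 25081266 to 29531096 counts per library. Some assembled loci join several genes (1335 loci hold more than 1 name), so internal starts were missed by the distance rule.

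Sites were built in Python 3.11.15, and overlaps were checked on simulated intervals. Sequence measures came from RefSeq GRCm38. RNA counts passed the filterByExpr filter, were scaled by TMM, and were compared by the quasi-likelihood test of edgeR 4.0.16 (R 4.3.3) over all loci, with DESeq2 1.42.0, the edgeR exact test and other settings as alternatives. The fit was tested on simulated counts. The members and gene lists were chosen with earlier results of these data known. Named members were the 10 highest ranked without a control peak, the 5 on either side of the 1 kb limit, the loci with at least 2 members, every called locus at a member and the gene lists, with some results not reported here. The members with the highest scores of all, the genes named as examples at GENCODE starts and the split of the protocadherins were chosen after their values were seen. Differential binding was not analysed here, since the peak lists hold no read counts.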

Additional observations from a re-analysis of the deposited data

How the results depend on the processing

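Equal numbers of the strongest peaks per library (8681) also gave 968 sites, but only 625 of the members were among them, whereas a 50% overlap of replicate peaks gave 968 sites that held 967 of the members. A minimum score of 100 gave 238 sites, of which 21.8% had no control peak, 43.7% overlapped a named locus and the median GC content was 45.4%. Requiring no peak in either control library gave 273 sites, of which 34.4% overlapped a named locus. With equal numbers of peaks 34.1% had no control peak. Leaving out 1 ChIP-Seq library in turn gave 468 to 4446 sites. The share without a control peak was 44.5 to 48.9% when a morphine library was left out and was not computed without a control library, which fixes it at 100%. With each of the 4 libraries left out, 33.4 to 37.8% overlapped a named locus, and the median GC content was 41.2 to 44.4%. The distance limit of 3 kb, the GENCODE starts and merging over 1 kb changed none of these 4 values beyond their limits.

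For the loci nearest to and overlapping a member, called numbers were 11 and 4 with RLE factors (1.53% called over all loci tested) and 16 and 4 with DESeq2 (10.6% of the 6147 loci it gave an adjusted p). They were 43 and 15 without a count filter (5.44% over all loci), 26 and 13 by the edgeR exact test (3.88%), 4 and 1 with the length and GC trend removed (0.433%), 1 and 1 at an FDR of 0.01 (0.118%), and 5 and 2 at sites without a control peak. Among the loci with a 5' end within 50 kb, 18 of the 1071 tested passed (1.68%), 9 higher and 9 lower, against 1.52% of all loci. The replicate block gave 34 and 13 (5.54% over all loci, 1128 called against 309 without it), and with the trend removed as well 13 and 3 (1.5%). The difference of RNA replicate 1 and 2 correlated between conditions at 0.026 over 20350 loci (loci are not independent replicates). Whether libraries of equal replicate number share a batch was not tested. Leaving out 1 RNA-Seq library gave 1 to 51 nearest and 1 to 21 overlapping loci. The share called over all loci was 0.0613 to 7.67% in those 4 fits. Each of the 12 DEGs at a member kept its direction in every setting with an adjusted p. Of these values 92 stayed past the threshold and 36 did not, and 4 more had no adjusted p from DESeq2. The causes were not tested.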
